A study of Mus musculus with 31 samples.

Results

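The genes described are the fibroblast growth factor Fgf9, the receptors Fgfr1, Fgfr2 and Fgfr3, and 6 genes that the pathway is known to switch on: the inhibitors Spry1, Spry2, Spry4 and Dusp6, and the transcription factor genes Etv4 and Etv5. They are 10 of 18193 genes named on the arrays, and were chosen by name. They have 23 probe sets whose only symbol is the gene, and the brightest of them, by its mean across the arrays, stands for each gene. Of the 10, 9 passed the filter on dim genes that left 11777 genes for testing, and Etv4, above its array's median signal on 0 of 31 arrays, did not. Fgf9 passed through 3 XY control arrays and 1 XY Ctnnb1KO array alone, so a difference between those groups and the others was built into its passing. Spry4 passed through 13 arrays, of which 8 were XY control or XY Ctnnb1KO.

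Gonads of mouse fetuses at embryonic day 14.5 were profiled, 1 pair of gonads, freed of the mesonephros, per array. Every fetus carried the transgene Sf1-cre+/Tg, which drives Cre recombinase from Sf1 sequence in somatic cells of the gonad and not in germ cells. The control genotype was Ctnnb1+/f; Sox9+/f, so each control also had 1 floxed allele of both genes. The Ctnnb1 knockout (Ctnnb1KO) was Ctnnb1f/f; Sox9+/f, the Sox9 knockout (Sox9KO) Ctnnb1+/f; Sox9f/f, and the double knockout (DKO) Ctnnb1f/f; Sox9f/f. Each genotype was taken from XX and from XY fetuses, with 4 arrays in each of the 8 groups except XY DKO, which had 3. SOX9 is the transcription factor that directs Sertoli cells and testis formation, and beta-catenin, the product of Ctnnb1, carries the WNT signal on which the ovary depends. The question addressed is whether gonads lacking one factor or both take a testis or an ovary fate. The whole gonad was measured, so fewer cells of a type and less RNA per cell cannot be told apart in any value below.

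FGF ligands bind receptor tyrosine kinases together with heparan sulphate on the cell surface, and the signal runs through RAS and the kinases RAF and MEK to ERK. Active ERK turns on the ETS factors ETV4 and ETV5 and, with them, brakes on the same route: Sprouty proteins act between receptor and RAF, and DUSP6 is a phosphatase that inactivates ERK. In the fetal testis FGF9 is made by Sertoli cells, signals through FGFR2 and is known to work with SOX9 against the ovarian programme. WNT4 and beta-catenin are known to oppose it in the fetal ovary.

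RefSeq held 9 promoters of 7 of the 10 genes in build GRCm38.p6, each running from 250 bases before to 50 bases after the start of the transcript. Spry4, Etv4 and Fgfr1 had none in the table. The promoters were searched on both strands for 4 short motifs: CCGGAA, the core of ETS factors such as ETV5; CTTTGA, the core of the TCF/LEF factors that work with beta-catenin; ACAAT, a core of SOX factors; and TGACGTCA, the cyclic AMP response element. The 3 promoters with a match are printed because they belong to the receptor that ran lower in control testes, Fgfr2, and to 2 feedback genes that ran higher there, Dusp6 and Spry2. Capitals mark the matched motif.
Dusp6, chr10:99262981-99263280, plus strand: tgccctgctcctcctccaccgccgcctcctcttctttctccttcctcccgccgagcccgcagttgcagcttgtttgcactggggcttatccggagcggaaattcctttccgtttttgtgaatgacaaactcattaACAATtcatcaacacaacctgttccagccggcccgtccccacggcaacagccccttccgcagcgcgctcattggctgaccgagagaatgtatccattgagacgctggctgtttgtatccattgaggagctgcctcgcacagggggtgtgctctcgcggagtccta
Spry2, chr14:105896770-105897069, minus strand: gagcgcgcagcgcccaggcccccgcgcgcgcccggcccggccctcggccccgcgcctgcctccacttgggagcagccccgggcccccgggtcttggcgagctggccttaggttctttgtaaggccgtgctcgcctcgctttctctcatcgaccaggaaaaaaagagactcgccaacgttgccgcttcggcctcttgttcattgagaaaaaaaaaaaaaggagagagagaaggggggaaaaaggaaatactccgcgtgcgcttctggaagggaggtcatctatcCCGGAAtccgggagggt
Fgfr2, chr7:130266759-130267058, minus strand: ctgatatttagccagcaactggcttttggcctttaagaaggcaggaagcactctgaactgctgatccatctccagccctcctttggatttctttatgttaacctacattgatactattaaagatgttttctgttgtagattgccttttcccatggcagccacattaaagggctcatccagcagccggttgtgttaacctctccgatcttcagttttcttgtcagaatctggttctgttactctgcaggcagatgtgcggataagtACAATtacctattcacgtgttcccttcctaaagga
In Dusp6 the ACAAT stands 115 bases before the start site. In Fgfr2 an ACAAT lies 15 bases after the start, and in Spry2 a CCGGAA lies 33 bases after it. Among all 32851 promoters of this length, 31% held ACAAT, 14.9% CCGGAA, 16% CTTTGA and 1.79% TGACGTCA. ACAAT was found in 2 of the 9 promoters of these genes, CCGGAA in 1, and CTTTGA and TGACGTCA in 0. A match to a few letters is a description of the sequence and shows no binding.

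The values are MAS5 signals, a linear brightness per probe set scaled so that every array has the same trimmed mean. Differences between groups are on the scale log2(signal + 16), given ± SE from limma, and a gene was called where its adjusted p (Benjamini-Hochberg over all genes of that comparison) was under 0.05. Sox9 signal ran from 839.7 to 1024.9 in XY control and from 7.14 to 41.7 in XY Sox9KO. It ran from 8.65 to 34.9 in XY DKO and from 11.7 to 174.3 in XX control. Ctnnb1 signal was 11001.8 to 14177.0 on all arrays, so it checks no label. In the array labelled XX Ctnnb1KO replicate 4, Xist read 51.1, against 7489.8 to 9431.7 on the other XX arrays. Its Y-linked Eif2s3y read 29.6, inside the XX range of 1.96 to 30.3. The calls in XX Ctnnb1KO are given without this array as well.

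**Figure D1:**
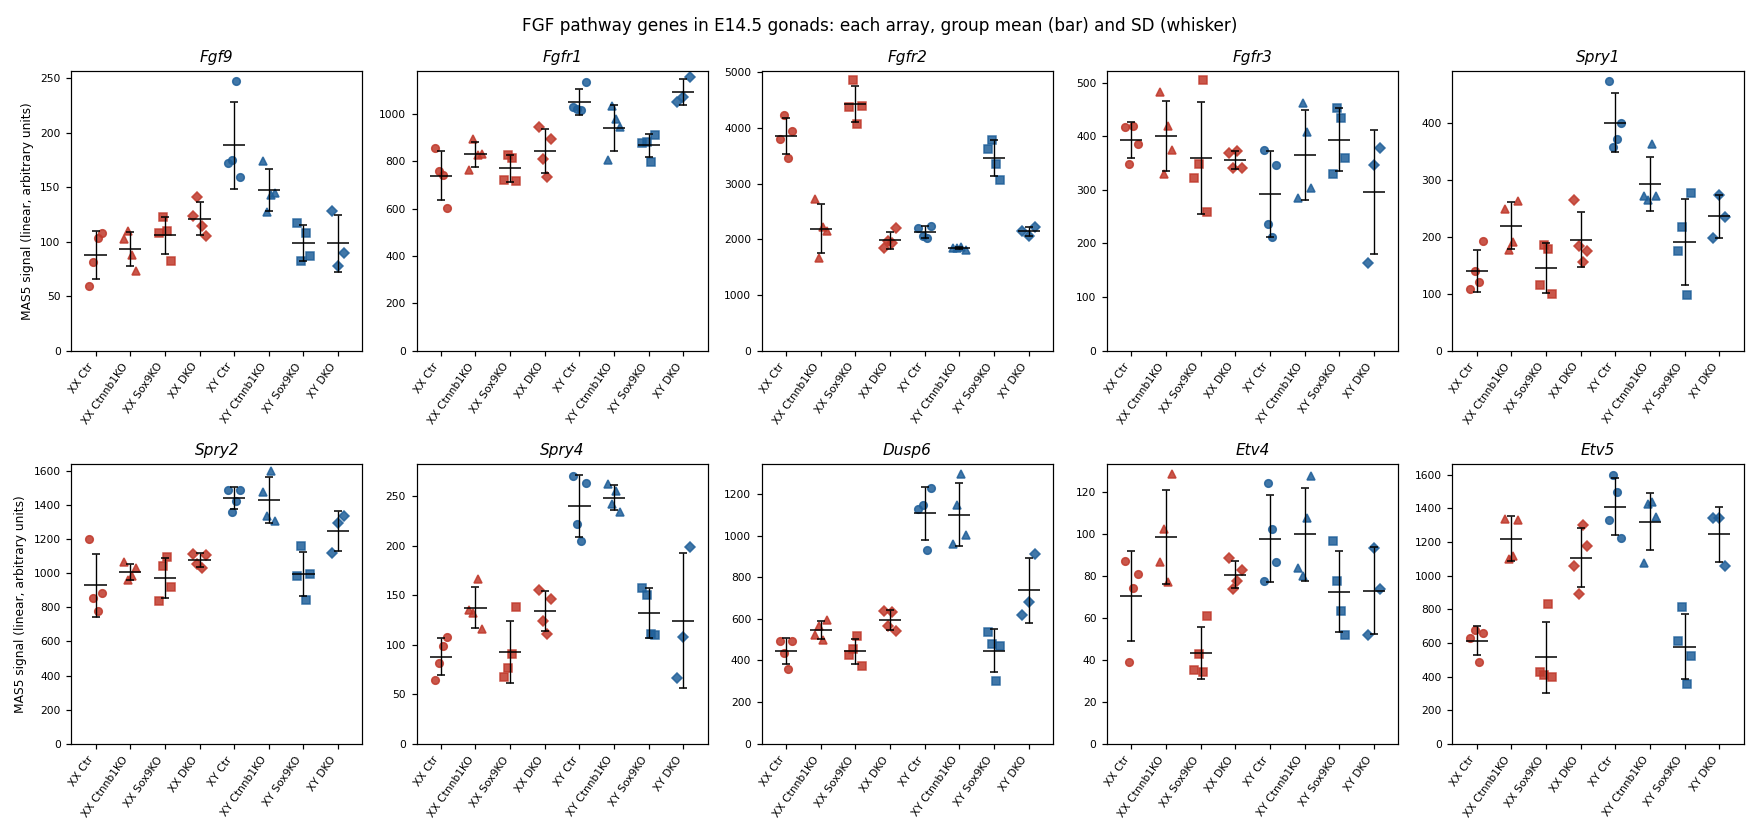
MAS5 signal (linear, y axis from 0) of the 10 genes on each of 31 arrays, 1 panel a gene and 1 column a group, with points for arrays, a bar at the group mean and a whisker of 1 SD. Dusp6 is highest in XY control and XY Ctnnb1KO, with all 8 arrays between 929.2 and 1293.6, while Fgfr2 is highest in XX control, XX Sox9KO and XY Sox9KO, with all 12 arrays between 3063.6 and 4867.5.

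Fgf9 (gene ID 14180, chromosome 14, 58070671 to 58112854) was about 2-fold higher in control testes than in control ovaries and fell when XY gonads lost Sox9, with or without Ctnnb1. Its signal in XY control was 172.4, 174.7, 247.4 and 159.3, against 59.6, 81, 103.5 and 107.7 in XX control. No XX control array reached the lowest XY control array, and the difference was 0.98 ± 0.18 (1.98-fold, adjusted p = 5.9e-05). In XY Sox9KO the arrays read 117.0, 82.3, 108.0 and 86.7, and in XY DKO 128.1, 78 and 89.4. All 7 arrays lay under the 4 XY controls. The fall was −0.83 ± 0.18 in XY Sox9KO (adjusted p = 0.000495) and −0.84 ± 0.20 in XY DKO (adjusted p = 0.00244). Both comparisons use the same control arrays. XY DKO and XY Sox9KO differed by −0.01 ± 0.20 (95% interval −0.41 to 0.39).

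Fgf9 in XY Ctnnb1KO read 173.8, 126.9, 142.9 and 145.0, between the control testes and the other groups, and overlapped XY control by a single array. That difference was −0.31 ± 0.18 (interval −0.68 to 0.06, adjusted p = 1) and was not called. XY Ctnnb1KO stood 0.58 ± 0.18 above XX Ctnnb1KO (adjusted p = 0.0129), and without XX Ctnnb1KO replicate 4 the value was 0.49 with an adjusted p of 0.0536. Among XX gonads Fgf9 ran from 59.6 to 140.6, with group means of 87.9 ± 22.2 (SD, n = 4) in control, 93.1 ± 15.9 in Ctnnb1KO, 105.8 ± 17.1 in Sox9KO and 121.0 ± 15 in DKO. Without XX Ctnnb1KO replicate 4 that group's difference from control went from 0.08 to 0.18. None of these XX differences from control was called, the largest being 0.42 ± 0.18 in DKO (adjusted p = 0.132). XX gonads without either factor therefore gave no called rise in Fgf9 at this number of arrays. The dimmer Fgf9 probe set, too dim to be tested, read 92.5 ± 11.7 in XY control, 48.3 ± 2.21 in XY Sox9KO and 81.2 ± 14.2 in XY DKO (SD, n = 4, 4 and 3). On it the XY DKO arrays overlapped those of XY control, and the XY Sox9KO arrays did not.

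Fgfr2 (gene ID 14183, chromosome 7, 130162451 to 130266808), the receptor through which FGF9 acts in the XY gonad, ran the other way. It was higher in control ovaries and in XY Sox9KO gonads than in control testes, but not in XY DKO gonads. It was lower wherever Ctnnb1 was lost in XX gonads. Its signal was 3809.8, 4233.0, 3459.7 and 3939.0 in XX control and 2207.3, 2055.9, 2028.6 and 2236.8 in XY control. The ranges lay far apart, and XX control was 1.8-fold higher (XY minus XX −0.85 ± 0.10, adjusted p = 2.66e-08). In XX Ctnnb1KO the arrays read 2731.6, 1663.8, 2225.2 and 2145.9, and in XX DKO 1836.7, 1967.2, 1934.8 and 2194.6. All 8 lay below the XX controls and around the XY controls. The falls were −0.83 ± 0.10 (adjusted p = 2.19e-07) and −0.95 ± 0.10 (adjusted p = 1.55e-08). Without XX Ctnnb1KO replicate 4 the former was −0.83 again (adjusted p = 1.87e-06). XX Sox9KO read 4369.5, 4867.5, 4072.2 and 4403.0, not called against XX control (0.20 ± 0.10, interval −0.00 to 0.40, adjusted p = 0.986).

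In XY gonads Fgfr2 rose on Sox9 loss, to 3628.6, 3790.7, 3343.8 and 3063.6. These 4 arrays were all above every XY control, by 0.69 ± 0.10 (1.61-fold, adjusted p = 1.17e-06), and overlapped XX control, from which they differed by −0.16 ± 0.10 (interval −0.36 to 0.04). With Ctnnb1 lost as well, XY DKO read 2144.0, 2058.1 and 2223.7, all inside the XY control range. XY DKO differed from XY control by 0.01 ± 0.11 (interval −0.21 to 0.22) and lay 0.68 under XY Sox9KO (−0.68 ± 0.11, adjusted p = 1.15e-05). Ctnnb1 loss alone gave 1843.2, 1841.3, 1855.2 and 1814.5 in XY gonads, all under the lowest control array, yet the difference of −0.21 ± 0.10 was not called (adjusted p = 1). In order of mean log2 level, XY Ctnnb1KO, XX DKO, XY control, XY DKO and XX Ctnnb1KO formed a low set at 10.86 to 11.09. XY Sox9KO, XX control and XX Sox9KO formed the high set, which began 0.67 above that.

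The other Fgfr2 probe set, 1420847_a_at, gave the same order of high and low groups at its own brightness: 2073.0 ± 238.3 in XX control, 2264.3 ± 418.6 in XX Sox9KO and 2208.4 ± 92.3 in XY Sox9KO, against means of 1018.2 to 1090.3 in the other groups (SD, n = 4). It was lower in XX Ctnnb1KO than in XX control (adjusted p = 1.45e-07), and its difference was −1.11 in XY DKO against XY Sox9KO (adjusted p = 4.64e-08).

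Fgfr1 (gene ID 14182, chromosome 8, 25518759 to 25575718), a receptor with wide expression in mesenchyme, differed less. It read 1030.7, 1019.0, 1017.6 and 1134.6 in XY control and 854.3, 757.4, 743.2 and 601.3 in XX control, without overlap, a difference of 0.51 ± 0.10 (adjusted p = 8.81e-05). XY Sox9KO, at 877.2, 883.1, 798.3 and 912.8, lay below every XY control array (−0.27 ± 0.10, adjusted p = 0.0255), while XY DKO, at 1052.0, 1071.9 and 1154.9, did not differ by a called amount from XY control (0.06 ± 0.10). XY DKO was above XY Sox9KO by 0.33 ± 0.10 (adjusted p = 0.0222) and above XX DKO by 0.37 (adjusted p = 0.0323), the sole call among these genes between the 2 double knockouts. The call in XY Sox9KO was lost without XY control replicate 4 or XY Sox9KO replicate 3 (−0.23 each, adjusted p = 0.0825 and 0.0854), and that of XY DKO against XY Sox9KO without XY Sox9KO replicate 3 or XY DKO replicate 4 (0.29 each, adjusted p = 0.0729 and 0.0982). With the probe sets of the gene averaged, these were −0.19 and 0.09, neither called. The probe sets of Fgfr1 disagreed. Probe set 1425911_a_at gave XY DKO as 0.54 lower than XY control (−0.54, adjusted p = 0.00461; 662.0 ± 78.6 against 966.6 ± 75.3, SD), opposite in sign to the brighter probe set. For XY against XX control 1425911_a_at was called as well (0.40, adjusted p = 0.0114), while a dim probe set, 1436551_at, gave −0.08 (adjusted p = 0.767). The position of these probe sets in the transcripts was not analysed here. Apart from that sex difference, the Fgfr1 calls hold for 1 probe set.

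Fgfr3 (gene ID 14184, chromosome 5, 33721724 to 33737068) had no call in any of the 19 comparisons. Its signal was 213.0 to 375.1 in XY control and 349.0 to 419.1 in XX control, which overlapped (−0.44 ± 0.21, interval −0.86 to −0.02, adjusted p = 0.0963). XY DKO was the widest group, with 164.3, 345.9 and 377.8. The SE of its differences between groups was 0.21 to 0.22, against 0.10 for Fgfr1.

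Dusp6 (gene ID 67603, chromosome 10, 99263231 to 99267489), the ERK phosphatase, had the smallest adjusted p of the feedback genes between control sexes. It read 1128.0, 1144.5, 929.2 and 1229.8 in XY control and 491.6, 435.0, 359.0 and 492.9 in XX control. All XY arrays were above all XX arrays, 2.45-fold (1.29 ± 0.15, adjusted p = 1.86e-08). XY Ctnnb1KO, at 961.1, 1146.1, 1293.6 and 1002.8, overlapped the controls, with 1 array above them (−0.01 ± 0.15, interval −0.31 to 0.29). XY Sox9KO fell to 538.9, 477.4, 299.5 and 472.0, which lay around the XX control arrays. The fall from XY control was −1.30 ± 0.15 (2.47-fold, adjusted p = 1.53e-08), and XY Sox9KO differed from XX control by −0.01 ± 0.15 (interval −0.31 to 0.28).

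The XY double knockout took a middle level of Dusp6, with 617.5, 682.2 and 912.3, above every XY Sox9KO array and below every XY control. It exceeded XY Sox9KO by 0.71 ± 0.16 (1.64-fold, adjusted p = 0.00114) and lay under XY control by 0.59 (−0.59 ± 0.16, adjusted p = 0.00823). Without XY DKO replicate 2, whose Dusp6 was the lowest of the 3, the difference from XY control was −0.47 with an adjusted p of 0.0735. In XX gonads, 523.9, 566.2, 498.2 and 596.8 in Ctnnb1KO and 638.8, 566.0, 631.4 and 541.5 in DKO all exceeded the highest control array of 492.9. The differences of 0.30 ± 0.15 (adjusted p = 0.249; 0.25 without XX Ctnnb1KO replicate 4) and 0.41 ± 0.15 (adjusted p = 0.0585) were not called. XX Sox9KO, at 374.1 to 516.7, overlapped the controls.

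The Sprouty genes, whose proteins restrain receptor tyrosine kinase signals to RAS and RAF, were higher in control testes. Spry1 (gene ID 24063, chromosome 3, 37639947 to 37644599) read 472.7, 357.8, 371.0 and 399.5 in XY control and 109.0, 139.6, 120.5 and 192.3 in XX control. The XY arrays were all higher, 2.7-fold (1.43 ± 0.23, adjusted p = 6.21e-06). It fell to 174.5, 216.5, 97.5 and 276.9 in XY Sox9KO (−1.08 ± 0.23, adjusted p = 0.000295) and to 198.3, 274.1 and 235.3 in XY DKO (−0.73 ± 0.24, adjusted p = 0.0364). Neither mutant reached a control array. The XY DKO call was lost without replicate 2 or 4 of that group or without XY control replicate 1, 3 or 4, with −0.62 and an adjusted p of 0.15 without XY DKO replicate 2. With no filter on dim genes its adjusted p was 0.0514. XX Ctnnb1KO ran from 176.8 to 262.6 and XX DKO from 155.1 to 264.8, overlapping the highest control array, with no call (0.60 ± 0.23, adjusted p = 0.094, or 0.52 without XX Ctnnb1KO replicate 4, and 0.43 ± 0.23, adjusted p = 0.227).

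Spry2 (gene ID 24064, chromosome 14, 105891947 to 105896819) had the smallest sex difference of the Sprouty genes on the log2 scale. Its arrays ran from 1355.8 to 1489.2 in XY control and from 779.9 to 1197.6 in XX control, without overlap (0.64 ± 0.11, adjusted p = 1.57e-05). XY Sox9KO, at 984.3, 1160.7, 844.8 and 995.0, fell to the XX range (−0.53 ± 0.11, adjusted p = 0.000199). XY DKO, at 1117.2, 1291.4 and 1335.6, was above XY Sox9KO on average with overlapping arrays (0.33 ± 0.12, adjusted p = 0.0425). That call was lost with no filter (adjusted p = 0.0551), with probe sets averaged (0.21) and without XY Sox9KO replicate 1, 3 or 4 or XY DKO replicate 3 or 4 (0.25 to 0.33). XY DKO lay just below all XY controls, a difference that was not called (−0.21 ± 0.12, adjusted p = 0.242). The other Spry2 probe set, 1421656_at, was called between control sexes (0.49, adjusted p = 0.00251) and in XY Sox9KO (−0.38, adjusted p = 0.0193). It gave no call in 4 comparisons where the brighter one did: 0.09 for XY DKO against XY Sox9KO (adjusted p = 0.706), 0.17 for XY against XX Ctnnb1KO (adjusted p = 0.337), 0.20 for XY DKO against XX control (adjusted p = 0.294) and −0.42 for the effect of Sox9 loss in XY minus that in XX (adjusted p = 0.103).

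Spry4 (gene ID 24066, on chromosome 18) read 270.5, 221.8, 205.3 and 263.3 in XY control and 64.7, 81.6, 98.5 and 107.6 in XX control, with every XY array higher (1.31 ± 0.21, 2.48-fold, adjusted p = 1.1e-05). It fell in XY Sox9KO to 157.2, 150.2, 111.0 and 109.9 (−0.80 ± 0.21, adjusted p = 0.00361). XY DKO spread widely, with 66.1, 107.7 and 199.1 (−0.97 ± 0.23 from XY control, adjusted p = 0.00303), and its lowest array, replicate 2, carried the call: without it the value was −0.64 (adjusted p = 0.0647). XX Ctnnb1KO, at 116.3 to 166.5, and XX DKO, at 111.1 to 155.2, lay wholly above the XX controls, but neither was called (0.57 ± 0.21, adjusted p = 0.0948, or 0.64 without XX Ctnnb1KO replicate 4, and 0.54 ± 0.21, adjusted p = 0.0986). The next Spry4 probe set, 1445669_at, gave a similar sex difference, 223.7 ± 23.4 against 89.7 ± 27.7, but placed XY DKO, at 150.7 ± 39.3, above XY Sox9KO, at 72.4 ± 9.76 (SD, n = 3 and 4; 0.90, adjusted p = 0.00372). The brighter probe set had −0.17 ± 0.23 for that comparison. On 1445669_at the fall from XY control to XY DKO was not called (−0.54, adjusted p = 0.0921). The XX rise did not appear on 1445669_at, where XX Ctnnb1KO and XX DKO differed from control by −0.10 and 0.02.

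Etv5 (gene ID 104156, chromosome 16, 22381313 to 22439570), the ETS factor that FGF signals induce and that is also known from germ cells and their somatic niche, was the feedback gene with the clearest response to Ctnnb1 loss in XX gonads. It read 628.5, 675.3, 487.2 and 657.2 in XX control. It rose to 1336.8, 1095.7, 1116.5 and 1331.5 in XX Ctnnb1KO and to 1055.0, 893.3, 1303.0 and 1177.4 in XX DKO. All 8 mutant arrays were above the controls, by 0.98 ± 0.20 (1.97-fold, adjusted p = 0.000604) and 0.84 ± 0.20 (1.79-fold, adjusted p = 0.00316). Without XX Ctnnb1KO replicate 4 the former was 0.94 (adjusted p = 0.00322). XX Sox9KO read 424.3, 410.0, 831.9 and 397.1, with replicate 3 alone above the controls (−0.30 ± 0.20, adjusted p = 0.986). Without that replicate the difference was −0.55 ± 0.18 (adjusted p = 0.467).

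In XY gonads Etv5 read 1327.7, 1598.5, 1494.2 and 1221.9 in control, 2.28-fold above XX control (1.19 ± 0.20, adjusted p = 1.25e-05). It dropped to 613.0, 815.6, 353.3 and 523.9 in Sox9KO, under every control array (−1.32 ± 0.20, adjusted p = 2.47e-06). In XY DKO it was back at 1339.4, 1340.5 and 1058.0, 2.21-fold above XY Sox9KO without overlap (1.14 ± 0.21, adjusted p = 0.000146). XY DKO and XY control overlapped (−0.18 ± 0.21, interval −0.61 to 0.25, adjusted p = 0.622). XY Ctnnb1KO, at 1073.1 to 1437.7, was not called against control. Mean Etv5 signal was thus 1107.2 to 1410.6 in XY control and the 4 groups that lack Ctnnb1, and 515.8 to 612.1 in XX control and both Sox9KO groups. A further probe set, 1450082_s_at, gave lower values for XY DKO, 520.4 ± 81.4, than for XY control, 748.1 ± 15.6 (SD, n = 3 and 4; −0.52, adjusted p = 0.0383), so the return to the control level held for the brightest probe set and not for this one.

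Etv4 (gene ID 18612, chromosome 11, 101769747 to 101785310), the related ETS factor, was dim, with 34.3 to 128.3 over all arrays. Without the filter on dim genes it had 1 call, XX DKO above XX Sox9KO by 0.72 ± 0.22 (adjusted p = 0.0291), where 8.92% of all 18193 genes were called. Its arrays were 88.3, 73.7, 77.5 and 82.8 in XX DKO and 35.1, 42.8, 34.3 and 60.6 in XX Sox9KO, with XX control spread over both at 87.2, 39, 74 and 80.6. Its difference between control sexes was 0.42 ± 0.22 (adjusted p = 0.158).

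**Figure D2:**
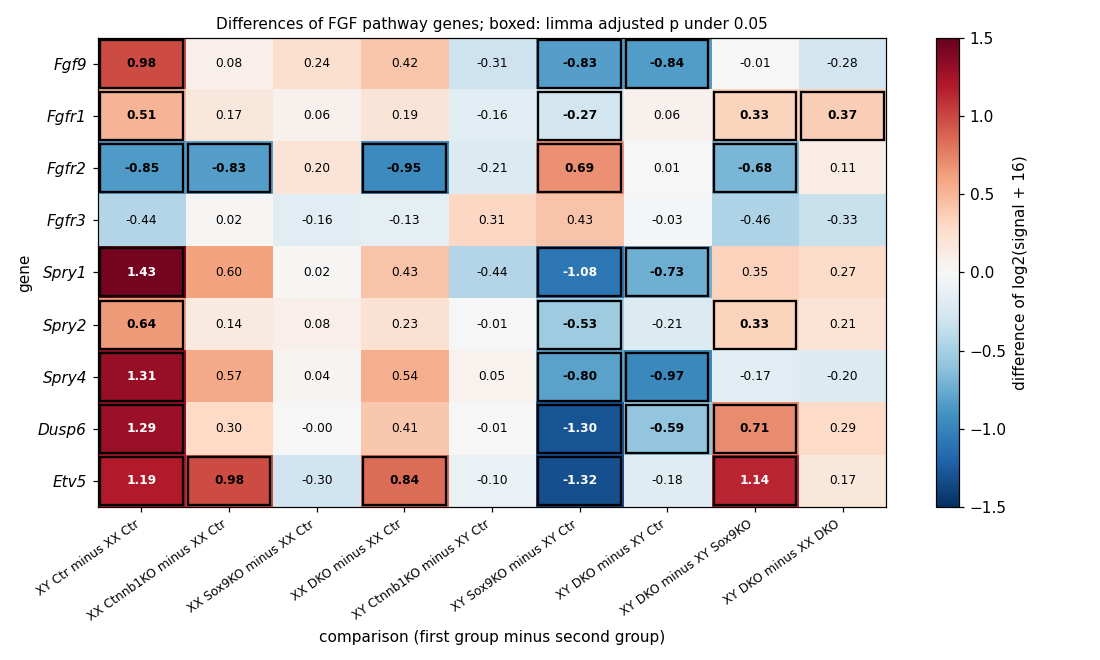
Log2 differences (log2(signal + 16), first group minus second) of the 9 genes tested, as a colour scale with the value printed in each cell, in 9 comparisons, with a box around adjusted p under 0.05. In XY control minus XX control 7 boxed cells are above 0 and Fgfr2 is below; in XY Sox9KO minus XY control, which shares the XY control arrays, 7 are below 0 and Fgfr2 is above. In XX Ctnnb1KO and XX DKO minus XX control Fgfr2 (−0.83 and −0.95) and Etv5 (0.98 and 0.84) are the boxed cells.

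Set against all genes, 8 of the 9 genes tested were called between control sexes, 7 higher in XY and 1 lower, where 37.8% of 11777 genes were called, 18% higher and 19.8% lower. Their median difference was 0.98, against −0.02 for all genes. With no filter, so that all 10 genes were tested, 8 of 10 were called where 27.0% of 18193 genes were. In XY Sox9KO against XY control 7 fell and 1 rose of the 9 tested, with 16% of all genes lower and 22.7% higher. The median was −0.80, against 0.05 for all genes, and with no filter 8 of 10 were called where 27.7% were. Since Fgf9 and Spry4 passed the filter mainly through arrays where they are high, these counts describe the list and support nothing further.

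In XX Ctnnb1KO and XX DKO against XX control 2 of 9 were called in each, Fgfr2 and Etv5, where 10.1% and 12.9% of genes were called. For so few genes that is not far above the share of all genes. The medians were 0.17 and 0.41, against 0.00 and 0.01. XX DKO differed from XX Sox9KO in Fgfr2 (−1.15 ± 0.10, adjusted p = 3.01e-10) and Etv5 (1.14 ± 0.20, adjusted p = 8.09e-05), 2 of 9 where 13.5% of genes were called. In XX Sox9KO against XX control limma called 0 of 11777 genes, with 537 at an unadjusted p under 0.05. XX DKO against XX Ctnnb1KO also had 0 calls, with 965 at an unadjusted p under 0.05. In XY Ctnnb1KO against XY control 0 of 9 genes were called, where 0.0679% of all genes, 8 in number, were called, and 473 had an unadjusted p under 0.05. The 95% intervals of the 9 genes there stayed within −0.89 and 0.74.

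XY DKO gave a mixed picture. Against XY control, 4 of 9 fell (Fgf9, Spry1, Spry4 and Dusp6), where 17.2% of genes were called and 7.61% fell. Without XY DKO replicate 2 Fgf9 was the 1 gene called. With all arrays and no filter 3 of 10 fell (Fgf9, Spry4 and Dusp6), where 11.5% of 18193 genes were called. Fgf9 and Spry4 passed the filter mainly through XY control and XY Ctnnb1KO arrays. The counts against those groups therefore describe the list and support nothing further. Against XY Sox9KO, 4 rose (Fgfr1, Spry2, Dusp6 and Etv5) and Fgfr2 fell, where 21.8% of genes were called, 11.1% higher and 10.8% lower. Without XY Sox9KO replicate 3 or XY DKO replicate 4 the count was 3, Fgfr2, Dusp6 and Etv5. Against XY Ctnnb1KO, Spry4 (−1.03 ± 0.23, adjusted p = 0.00196) and Dusp6 (−0.58 ± 0.16, adjusted p = 0.011) fell, 2 of 9 where 14% of all genes were called, near that share. Without XY DKO replicate 3 the Spry4 call held and that of Dusp6 was lost (−0.53, adjusted p = 0.0614). Without XY DKO replicate 2 both were lost (Spry4 −0.70, adjusted p = 0.0511, and Dusp6 −0.46, adjusted p = 0.0936), and Fgf9 was called instead (−0.71, adjusted p = 0.0311). The Spry4 call was lost as well on its probe set 1445669_at (−0.38, adjusted p = 0.298) and with probe sets averaged (−0.50, adjusted p = 0.0897). Against XX control, 5 rose (Fgfr1, Spry1, Spry2, Dusp6 and Etv5) and Fgfr2 fell, where 26.2% were called, 14.6% higher and 11.7% lower. Against XX DKO, Fgfr1 alone was called, where 5.22% were, and leaving out any 1 of 5 arrays, XX DKO replicate 2 or 3 or XY DKO replicate 2, 3 or 4, ended that call.

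XY Sox9KO against XX control had 0 of these genes called, where 0.628% of all genes, 74 in number, were called by limma and 2136 had an unadjusted p under 0.05. Spry4 had the largest difference of the 9 there (0.51 ± 0.21, interval 0.07 to 0.95, adjusted p = 0.199). On its probe set 1445669_at XY Sox9KO was the lower, at 72.4 ± 9.76 against 89.7 ± 27.7 (SD), with overlapping arrays. XY Ctnnb1KO exceeded XX Ctnnb1KO in Fgf9, Spry2 (0.49 ± 0.11), Spry4 (0.79 ± 0.21) and Dusp6 (0.98 ± 0.15, adjusted p = 3.59e-06), 4 of 9 where 32.5% of genes were called, near that share. Without XX Ctnnb1KO replicate 4, 3 of these calls were left. Since Fgf9 and Spry4 passed the filter mainly through XY control and XY Ctnnb1KO arrays, this count too supports nothing further. Fgfr2 (−0.23 ± 0.10, adjusted p = 0.0703) and Etv5 (0.11 ± 0.20, adjusted p = 0.714) were not called between these 2 groups.

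The design allows the effect of a loss to be compared between sexes and between backgrounds. The effect of Sox9 loss in XY minus that in XX was called for 7 of the 9 genes, where 23.3% of genes were called. With no filter 5 of 10 were called lower and 1 higher, where 15.8% of 18193 genes were called. XY control enters this contrast, and Fgf9 and Spry4 passed the filter mainly through XY control and XY Ctnnb1KO arrays. The count therefore describes the list and supports nothing further. The difference was −1.30 ± 0.21 for Dusp6 (adjusted p = 1.36e-05), −1.07 ± 0.26 for Fgf9 (adjusted p = 0.00221) and 0.49 ± 0.14 for Fgfr2 (adjusted p = 0.00888). Spry1, Spry2, Spry4 and Etv5 were the others called, at −1.10, −0.61, −0.84 and −1.02. The Spry4 call was lost with no filter (adjusted p = 0.0591) and without any of 8 arrays, with an adjusted p of up to 0.117. The effect of Ctnnb1 loss in XX minus that in XY was called for Fgfr2 (−0.62 ± 0.14, adjusted p = 0.0048) and Etv5 (1.08 ± 0.28, adjusted p = 0.0177), 2 of 9 where 4.19% were called. Without XX Ctnnb1KO replicate 4 both calls held (adjusted p = 0.00998 and 0.0398). For Spry1 it was 1.04 ± 0.32 (adjusted p = 0.0617).

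In XY gonads the effect of losing Ctnnb1 with Sox9 already absent, minus its effect with Sox9 present, was called for 4 of 9 genes, where 9.75% were called. It was 1.24 ± 0.29 for Etv5 (adjusted p = 0.00411), 0.73 ± 0.21 for Dusp6 (adjusted p = 0.0264), 0.49 ± 0.14 for Fgfr1 (adjusted p = 0.0239) and −0.47 ± 0.14 for Fgfr2 (adjusted p = 0.0322). The Etv5 call was lost on its probe set 1420998_at (0.73 ± 0.27, adjusted p = 0.103), and held on 1450082_s_at (0.92 ± 0.24, adjusted p = 0.012). The Fgfr1 call rested on its brightest probe set. It was lost with probe sets averaged (0.22, adjusted p = 0.335), on 1425911_a_at (−0.06, adjusted p = 0.903) and on 1436551_at (0.22, adjusted p = 0.699). It was also lost without XY DKO replicate 4 (0.45, adjusted p = 0.0674). Fgf9, not called on its brighter probe set (0.30 ± 0.27, adjusted p = 0.543), was called with probe sets averaged (0.66, adjusted p = 0.0191). Leaving out XY Ctnnb1KO replicate 1 left the Etv5 call alone, and leaving out XY control replicate 4 or XY Sox9KO replicate 3 left Etv5 and Fgfr2. The Dusp6 call was lost without 5 of the 15 arrays taken singly (adjusted p of up to 0.117, without XY DKO replicate 4) and the Fgfr2 call without 8 of the 15 arrays taken singly, with an adjusted p of up to 0.0753. In XX gonads limma called 0 genes for the same term (471 had an unadjusted p under 0.05), and its value for Etv5 was 0.15 ± 0.28 (interval −0.41 to 0.72), or 0.40 ± 0.24 without XX Sox9KO replicate 3 (adjusted p = 0.999).

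Other FGF ligands were mostly dim: 4 of 21 passed the filter. Between control sexes 3 were higher in XY and 1 lower, where 18% and 19.8% of all genes were. In XY Sox9KO 3 fell and 1 rose, where 16% and 22.7% of all genes did. Fgf18, a ligand known from bone and lung, was the ligand called in XX Ctnnb1KO. Its arrays read 334.2, 244.3, 306.8 and 357.7 in XX control, 707.7 to 869.5 in XX Ctnnb1KO and 670.9 to 914.0 in XX DKO. It rose by 1.28 ± 0.13 (adjusted p = 2.25e-08) and 1.26 (adjusted p = 3.19e-08), and again in XY DKO, at 638.9 to 789.8, by 1.30 over XY Sox9KO (adjusted p = 4e-08) and 0.68 ± 0.14 over XY control (adjusted p = 0.000996). In XY Ctnnb1KO, at 325.0 to 420.0, no rise was called. Fgf13, a member of the family that stays inside the cell, read 613.6 ± 20.7 in XY control and 194.0 ± 26.1 in XX control (SD, n = 4; 1.59 ± 0.21, adjusted p = 2.26e-07). It fell in XY Sox9KO (−1.62, adjusted p = 1.6e-07) and in XY DKO (−1.37, adjusted p = 3.1e-05).

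Of other receptors, co-receptors and binding proteins, 13 of 16 passed the filter, and 7 were higher and 3 lower in XY control. Of all genes, 18% were higher and 19.8% lower there. In XY Sox9KO 8 fell and 3 rose, where 16% and 22.7% of all genes did. In XY DKO 7 fell against XY control, where 7.61% of all genes did. That count rested on single arrays. Without XY DKO replicate 2 the calls of Fgfrl1, Flrt3, Gpc1, Ncam1 and Sdc1 were lost (adjusted p of 0.123 to 0.195). Without XY DKO replicate 4 that of Sdc4 was lost (adjusted p = 0.16). The heparan sulphate carrier Gpc3 read 9015.9 to 9906.8 in XY control and 4490.2 to 5048.3 in XX control (0.96 ± 0.07, adjusted p = 3.02e-13). It was low in both XY Sox9KO, at 4786.7 to 5051.9, and XY DKO, at 5363.9 to 5786.4 (−0.92, adjusted p = 8.53e-13, and −0.75, adjusted p = 2.03e-09). The receptor gene Fgfr4 was higher in XY control by 1.11 ± 0.18 (adjusted p = 8.94e-06) and fell in XY Sox9KO from 279.2 ± 48.8 to 130.8 ± 18 (SD, n = 4; limma adjusted p = 4.29e-05). In XX Ctnnb1KO, where 4.81% of all genes rose and 5.32% fell, 0 of the 13 rose and 4 fell, among them Gpc4 (−0.63 ± 0.07, adjusted p = 1.19e-07) and Flrt2, of a family of membrane proteins that bind FGF receptors (−0.53 ± 0.10, adjusted p = 0.000361).

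Of 11 genes measured for heparan sulphate enzymes, 2 were higher and 3 lower in XY control. For so few genes that is not far from the 18% and 19.8% of all genes. In XX Ctnnb1KO 1 rose and 1 fell, where 4.81% and 5.32% of all genes did. The 2 were the extracellular sulphatases that trim heparan sulphate, which moved in opposite directions. Sulf1 read 5283.2, 6422.8, 6233.7 and 6818.8 in XX control and 2511.9, 2843.5, 2921.5 and 2828.3 in XY control (−1.15 ± 0.09, adjusted p = 1.78e-11). It fell in XX Ctnnb1KO (−0.90 ± 0.09, adjusted p = 1.7e-08) and rose in XY Sox9KO (1.23 ± 0.09, adjusted p = 3.89e-12), and it was lower in XY DKO than in XY Sox9KO (−1.05 ± 0.10, adjusted p = 2.39e-09). Sulf2 read 5217.2 to 6067.2 in XY control and 2419.2 to 3428.3 in XX control. It had the opposite sign to Sulf1 in these 4 comparisons, all called, with 0.61 in XX Ctnnb1KO, −0.71 in XY Sox9KO and 0.81 in XY DKO against XY Sox9KO. Hs3st1, a sulphotransferase gene, rose in XY Sox9KO (1.19 ± 0.11) and in XY DKO (1.12 ± 0.12) alike.

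For the relay from receptor to ERK, 12 of 18 listed genes were measured and tested. Between control sexes 1 was higher and 2 lower in XY, where 37.8% of all genes were called. In XX Ctnnb1KO and in XX DKO 0 were called, where 10.1% and 12.9% of all genes were. In XY Sox9KO 3 rose and 0 fell, where 38.7% of all genes were called. The adaptor gene Gab1 (0.46 ± 0.10, adjusted p = 0.000378) and the RAS activator gene Sos2 (0.46 ± 0.10, adjusted p = 0.000477) were among those 3.

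Of 13 other feedback inhibitors tested of 17 listed, 4 were higher and 4 lower in XY control, where 18% and 19.8% of all genes were. The phosphatases split. Dusp4, an ERK phosphatase of the nucleus, read 252.6 to 439.6 in XY control and 83.6 to 130.4 in XX control (1.53 ± 0.20, adjusted p = 3.34e-07). It fell in XY Sox9KO to 76.4 to 124.6 (−1.76 ± 0.20, adjusted p = 2.37e-08), and was higher in XX Ctnnb1KO (0.92, adjusted p = 0.00179) and XX DKO (0.78, adjusted p = 0.00805). Dusp9, a cytoplasmic ERK phosphatase, ran opposite, with 727.6 to 1177.0 in XX control and 193.1 to 296.8 in XY control (−2.01 ± 0.23, adjusted p = 2.13e-08), and 554.9 to 958.7 in XY Sox9KO (1.77 ± 0.23, adjusted p = 2.23e-07). Dusp5 had −1.22 ± 0.17 and 1.59 ± 0.17 in the same 2 comparisons. Il17rd, a membrane antagonist of FGF receptors, was higher in XY control (0.72 ± 0.14), in XX Ctnnb1KO (0.56 ± 0.14) and in XX DKO (0.67 ± 0.14), and lower in XY Sox9KO (−0.52 ± 0.14).

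Of other transcription genes that ERK is known to induce, 9 of 12 measured were tested, and 3 were higher and 2 lower in XY control. For so few genes that is not far from the 18% and 19.8% of all genes. Egr1, a zinc finger factor that responds quickly to ERK, was high in the same groups as Etv5. It read 447.3, 551.6, 480.4 and 452.2 in XX control and 1497.7 to 1797.6 in XY control (1.71 ± 0.12, adjusted p = 6.3e-13). It was 1245.1 to 1567.7 in XX Ctnnb1KO, 1345.2 to 1729.5 in XX DKO, 1497.9 to 1866.5 in XY DKO and 1900.7 to 2106.5 in XY Ctnnb1KO. In XX Sox9KO it was 389.1 to 605.3, and in XY Sox9KO 472.5 to 598.3. The high and low groups did not overlap, and the differences were 1.54 in XX Ctnnb1KO (adjusted p = 8.06e-11) and −1.59 in XY Sox9KO (adjusted p = 3.2e-12). XY DKO exceeded XY Sox9KO by 1.68 ± 0.13 (adjusted p = 3.39e-11). Fos went against this, lower in XY control (−1.26 ± 0.25, adjusted p = 0.000193) and higher in XY DKO than in XY control (1.54 ± 0.27, adjusted p = 0.000112). In XX Sox9KO and XY Ctnnb1KO against their controls limma called 0 genes in all 6 lists. Without XX Ctnnb1KO replicate 4 the genes of these lists named as called in XX Ctnnb1KO were called again, with 1.23 for Fgf18, −0.61 for Gpc4, −0.45 for Flrt2, −0.88 for Sulf1, 0.68 for Sulf2, 0.83 for Dusp4, 0.48 for Il17rd and 1.55 for Egr1. Their adjusted p was up to 0.0441 (Il17rd).

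**Figure D3:**
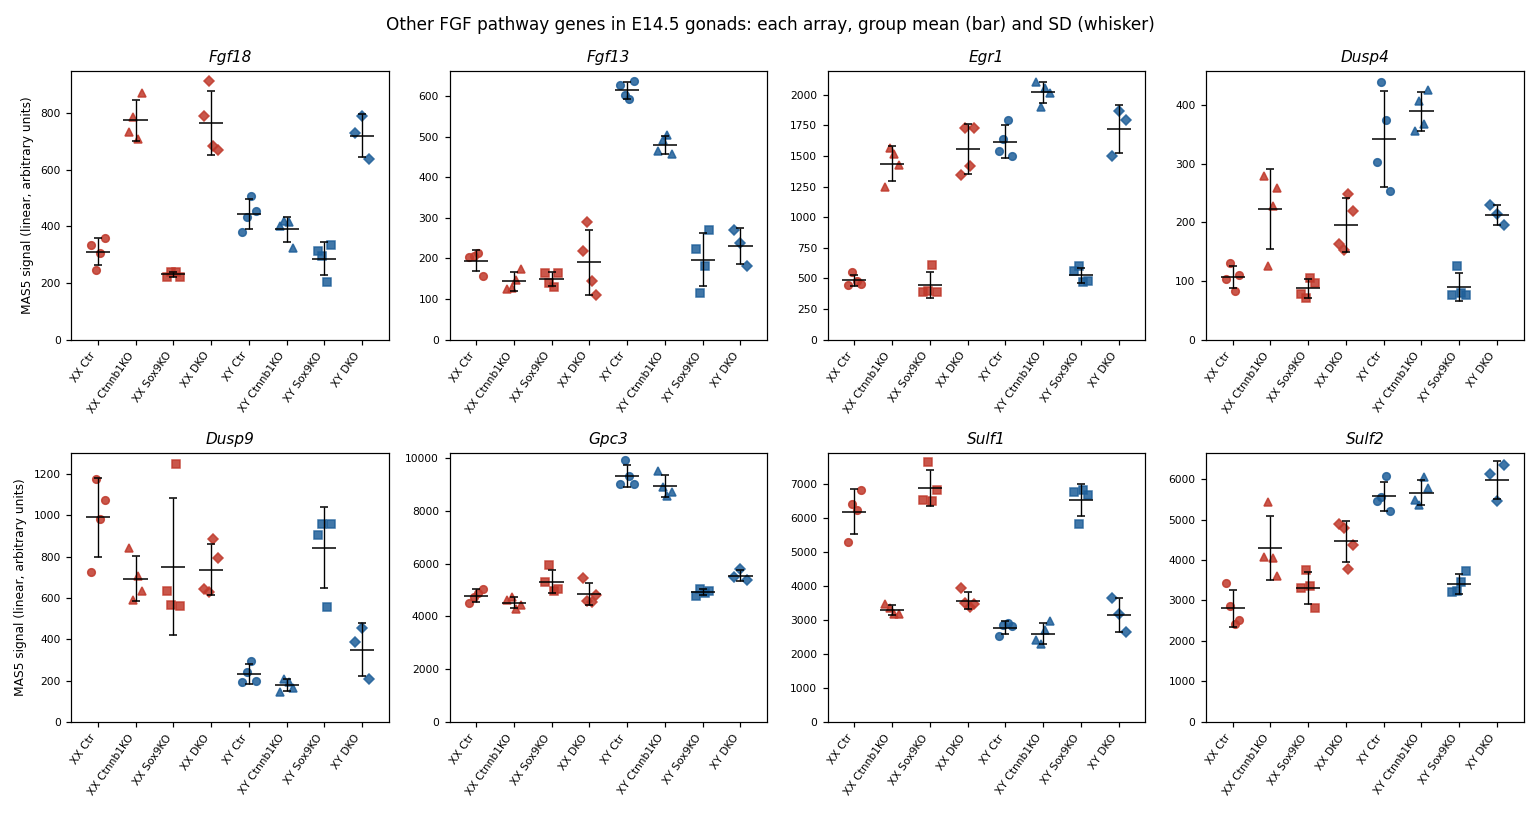
MAS5 signal (linear, y axis from 0) of 8 other genes of the route on each array by group, with points for arrays, a bar at the group mean and a whisker of 1 SD. Fgf18 is highest in XX Ctnnb1KO, XX DKO and XY DKO, and Fgf13 and Gpc3 are highest in XY control and XY Ctnnb1KO. Egr1 is high in all of these groups.

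Markers of the gonad's cell types differed between the groups as well. The summed signal of 7 Sertoli cell markers was 22566 to 26946 in XY control and 19839 to 23211 in XY Ctnnb1KO, but 1676 to 2024 in XY Sox9KO, 3299 to 3615 in XY DKO and 1642 to 2582 in the XX groups. All 6 of the Sertoli markers tested fell in XY Sox9KO and in XY DKO, where 16% and 7.61% of all genes fell. Sox9, the gene deleted in both groups, is among the markers summed and counted, so its own fall was set by the design. The sum of 4 fetal Leydig cell markers was 32849 to 37935 in XY control, 1948 to 2426 in XY Sox9KO and 12099 to 15674 in XY DKO. The sum of 6 pregranulosa markers was 10759 to 11942 in XX control, 6302 to 7639 in XX Ctnnb1KO and 6543 to 7440 in XX DKO. It was 1492 to 1664 in XY control, 11396 to 12328 in XY Sox9KO and 5371 to 6513 in XY DKO. The sum of 4 interstitial and hedgehog target genes was 12259 to 14351 in XY control, 4195 to 4963 in XY Sox9KO and 8064 to 8914 in XY DKO. It was 3943 to 4405 in XX control, 4970 to 6158 in XX Ctnnb1KO and 5580 to 6618 in XX DKO. Between control sexes and in XY Sox9KO these 4 lists changed along with Fgf9, Dusp6, the Sprouty genes and Fgfr2. In XY DKO they parted. Fgfr2 there was level with XY control (0.01 ± 0.11), while the pregranulosa sum was above it. On its brighter probe set Fgf9 there was level with XY Sox9KO (−0.01 ± 0.20), while the Leydig and interstitial sums were above it. The dimmer Fgf9 probe set, too dim to be tested, was also higher in XY DKO than in XY Sox9KO (81.2 ± 14.2 against 48.3 ± 2.21, SD). The part of these cell types in the values of those genes was not tested.

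Germ and blood cell markers also moved. The sum of 4 fetal male germ cell markers was 137 to 218 in XX control, 144 to 234 in XX Sox9KO and 134 to 245 in XY Sox9KO. It was 1717 to 3941 in the other 5 groups, the same groups in which Etv5 and Egr1 were high. The sum of 5 germ cell markers shared by both sexes was 8868 to 15766 in XX control and 16471 to 18917 in XX Ctnnb1KO. The 2 of these 5 that rose there were not called without XX Ctnnb1KO replicate 4. The sum of 4 meiotic germ cell markers was 12332 to 18141 in XX control, 5670 to 13888 in XX Ctnnb1KO, 5494 to 13818 in XX DKO and 12068 to 14319 in XY Sox9KO. It was 2343 to 6198 in XY DKO and 1135 to 1483 in XY control. Of 5 macrophage markers, 3 rose in XX Ctnnb1KO, 4 in XX DKO and 5 in XY DKO, each against the control of its sex. There 10.1%, 12.9% and 17.2% of all genes were called in either direction. The macrophage sums were 2291 to 3743 in XX control, 2457 to 3306 in XY control and 5055 to 7176 in XY DKO. The part of these cells in the Etv5 and Egr1 values was not tested. Sums of endothelial markers, 2751 to 3991 over all arrays, and of mesonephric markers, 197 to 545, are given for the other cell types the dissection could hold. The 4 gonadal somatic markers summed to 9454 to 16949 over all arrays, a sum that does not show each gene by itself.

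As a description over the 31 arrays, which share the 8 group levels, the genes most like each member in log2 signal were found by Pearson's r. For Fgfr2 they were Sorbs2 (0.960), Dcaf12l1 (0.956) and Cntn4 (0.954), for Dusp6 Lifr (0.952), Vgll3 (0.950) and Lmnb1 (0.947), and for Etv5 Tma16 (0.931), Spata13 (0.924) and Egr1 (0.914). Spry2 was most like Pdgfrb (0.924), Pja1 (0.921) and Enpep (0.916). Fgf9 was most like the matrix genes Sparc (0.844) and Col5a1 (0.842), with Alcam (0.830). Spry1 was most like Nuak1 (0.878), G2e3 (0.873) and Lrig3 (0.853), Spry4 like Ripor2 (0.846), Col4a2 (0.844) and Tnni3 (0.843), and Fgfr1 like Pxdn (0.848), Tac2 (0.822) and Tns1 (0.822).

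Within groups, arrays that were high in 1 feedback gene tended to be high in others. The deviations of the 31 arrays from their group means had r of 0.59 between Dusp6 and Spry1, 0.59 between Dusp6 and Spry2, 0.49 between Dusp6 and Etv5 and 0.46 between Spry1 and Spry2. Spry4 had r of −0.17 (Fgf9) to 0.35 (Fgfr3) with the other genes, and Fgf9 had −0.41 with Spry2 and −0.39 with Fgfr1. XY Sox9KO replicate 3 was the lowest array of its group for Dusp6 (299.5), Etv5 (353.3), Spry1 (97.5) and Spry2 (844.8). Arrays share their RNA, amplification and scaling across genes, and these r are given with no test.

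**Figure D4:**
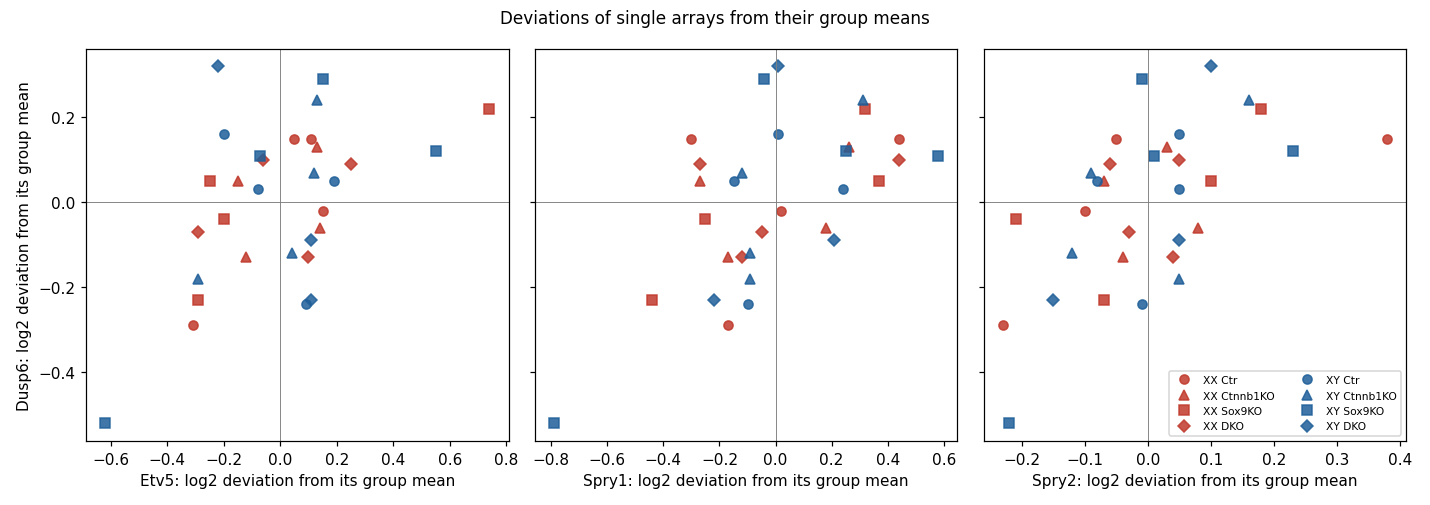
Deviation of each of 31 arrays from its group mean (log2(signal + 16)) for Dusp6 on the y axis against Etv5, Spry1 and Spry2 on the x axes. There is 1 point an array, with colour for XX or XY and marker shape for genotype. The points lean upwards in each panel, with r of 0.49, 0.59 and 0.59.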

How the data were processed

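Each of 31 arrays held labelled RNA of 1 pair of mouse fetal gonads; 40 ng of total RNA was amplified and labelled with biotin, per the labels' protocols. The authors deposited 1 intensity per probe set, a MAS5 signal on a linear scale according to the submitters' processing notes, with version and settings not stated there. The trimmed mean (2% off each end) was 499.9 on every array, and the median 120.6 to 168.8. Amplification from little RNA and scaling to a shared mean can shift all genes of an array together.

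Of 45101 probe sets, 64 controls were left out; 34945 had 1 symbol in the platform annotation, 932 several and 9160 none, and 34741 were matched by Entrez identifier to RefSeq, which changed 0 symbols. The brightest probe set stood for each of 18193 genes, and 11777 above their array's median on at least 3 arrays were kept. All 31 arrays entered 1 limma fit (version 3.58.1, R 4.3.3) of 8 group means on log2(signal + 16), which understates fold changes of dim genes, with eBayes, a trend, 23 residual degrees of freedom and 6.68 prior ones (median). P-values were adjusted to Benjamini-Hochberg values per comparison. The groups came from titles and genotypes, and the number of arrays limits the precision.

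The genes described and the pathway and marker lists were chosen with earlier results of these data known. Other genes named are up to 3 called per pathway list and comparison by size, or those needed to say which moved, and the 3 genes most correlated with each gene. Replicate numbers did not pair the arrays: same-numbered arrays of different groups had a mean r of −0.00782 (−0.448 to 0.537, 105 pairs). On data simulated for 11777 genes in the comparison of XX DKO with XX control, the fit was tested: 70.1% of 67 altered 1.5-fold, 95.5% of 67 changed 2-fold and 97% of 66 changed 4-fold were recovered, with 8 false calls among 183. The alternatives tried were a replicate block, pseudocounts of 1 and 64, quantile normalization, no filter, the mean of a gene's probe sets, eBayes without a trend, only the arrays compared, each array left out and, chosen after seeing the data, each other probe set.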

Additional observations from a re-analysis of the deposited data

Results flagged for a closer look

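Groups of 3 arrays were not checked for an outlying array. Of 70 groups of 4 arrays, 3 had 1 array far from the others, while chance alone marks about 1 in 20 groups: Fgfr1 in XY control replicate 4 (1134.6, the others 1017.6 to 1030.7), Spry1 in XY Ctnnb1KO replicate 3 (363.5, the others 265.0 to 271.3) and Etv5 in XX Sox9KO replicate 3 (831.9, the others 397.1 to 424.3).

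Effects that differed between sexes or backgrounds by a limma test of the difference itself were as follows. The effect of Sox9 loss in XY minus that in XX was −1.07 for Fgf9, 0.49 for Fgfr2, −1.10 for Spry1, −0.61 for Spry2, −0.84 for Spry4, −1.30 for Dusp6 and −1.02 for Etv5. Fgf9 and Spry4 passed the filter mainly through XY control and XY Ctnnb1KO arrays. The Spry4 call was lost with no filter (adjusted p = 0.0591), and that of Spry2 on its probe set 1421656_at (adjusted p = 0.103). The effect of Ctnnb1 loss in XX minus that in XY was −0.62 for Fgfr2 and 1.08 for Etv5. The effect of Ctnnb1 loss without Sox9 minus that with Sox9, in XY gonads, was 0.49 for Fgfr1, −0.47 for Fgfr2, 0.73 for Dusp6 and 1.24 for Etv5. The Fgfr1 call was lost with probe sets averaged (0.22, adjusted p = 0.335), and that of Etv5 on its probe set 1420998_at (adjusted p = 0.103). Those of Fgfr2 and Dusp6 were lost when some single arrays were left out.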

How the results depend on the processing

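Of 171 values (9 genes in 19 comparisons, 57 called), direction and call were kept in 169 under quantile normalization, in 170 each with pseudocounts of 1 and 64, without the trend and with the replicate block, in 168 with no filter, in 163 with the mean of a gene's probe sets and in 164 with only the arrays compared. None of these settings reversed a called value. With the replicate block Spry1 in XY DKO against XY control lost its call (−0.72, adjusted p = 0.0535), so 3 genes were called there and not 4; it changed no other call, and 8 of 31 arrays were closest to arrays of their own number. Calls in XY DKO against XY Sox9KO went from 5 to 3 with averaged probe sets or only the arrays compared, those against XY Ctnnb1KO from 2 to 1 with averaged probe sets, and those against XX DKO from 1 to 0 under both.

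Leaving out each array in turn kept 1533 of 1602 values. Calls ranged from 8 to 9 in XY against XX control, 2 to 3 in XX Ctnnb1KO, XX DKO (against XX control and XX Sox9KO) and the Ctnnb1 difference between sexes, 7 to 9 in XY Sox9KO, 1 to 4 in XY DKO against XY control, 3 to 5 against XY Sox9KO, 1 to 2 against XY Ctnnb1KO, 5 to 7 against XX control and 0 to 1 against XX DKO. They ranged from 3 to 5 in XY against XX Ctnnb1KO, 1 to 4 in the XY interaction and 6 to 7 in the Sox9 difference, and stayed at 0 in XX Sox9KO, XX DKO against XX Ctnnb1KO, XY Ctnnb1KO, XY Sox9KO against XX control and the XX interaction.

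Other probe sets kept direction and call in 129 of 152 values, lost the call in 13 and gained one in 2. They gave the opposite sign in 8: Fgfr1 with −0.08 (1436551_at, XY against XX control) and, on 1425911_a_at, −0.54, −0.27, −0.14, −0.36 and −0.06 (XY DKO against XY control, XY Sox9KO, XX control and XX DKO, and the XY interaction), and Spry4 on 1445669_at with 0.90 (XY DKO against XY Sox9KO) and 1.06 (XY interaction). The cause was not tested. Of 2278 alternative values of the other pathway genes named in the lists, 181 lost their call and 0 reversed. Signals near background, such as Etv4 and the dimmer Spry4 and Fgf9 probe sets, limit what can be read from them.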
